A study of Homo sapiens with 6 samples.

Results

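CDS2, SLC4A4, KAT6A and LGALSL are 4 genes that the literature reports as targets of miR-224 in methotrexate-resistant colon cancer cells, and all probe sets annotated with only 1 of these symbols were taken. They are 4 of 19775 genes on the arrays, and hold 16 of the 54613 probe sets tested: 5 for CDS2, 5 for SLC4A4, 4 for KAT6A and 2 for LGALSL, and no further probe set shares 1 of the symbols with another gene. They were chosen by gene name, with earlier results of these data known. HCT116, an established human colon carcinoma line, was transfected with a precursor of miR-224 or with control oligos, each at 50 nM. Total RNA was taken after 24 h and read on 6 Affymetrix expression arrays, 3 of miR-224 cells and 3 of control cells. The labels number the arrays of each group 1 to 3, and the series describes them as pairs of independent experiments, so arrays of equal number were read as 1 experiment. The cells are of 1 line, they were not selected for methotrexate resistance as far as the labels say, and the miR-224 level reached is not given in the sources used here.

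A microRNA guides an Argonaute protein to messenger RNAs, mostly by pairing of its seed with sites in the 3′ untranslated region, and lowers the stability or the translation of those messages. Methotrexate, an antifolate, starves dividing cells of reduced folates for nucleotide synthesis. The 4 genes have no shared enzymatic step: CDS2 encodes a CDP-diacylglycerol synthase of the endoplasmic reticulum that feeds phosphatidylinositol synthesis, KAT6A (also MOZ or MYST3) a histone acetyltransferase of the MYST family, SLC4A4 an electrogenic sodium bicarbonate cotransporter, and LGALSL a small protein related to galectins, the lectins that bind beta-galactosides.

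The mature sequences of both arms of the miR-224 hairpin are shown because they are the agent under test, with the seed (bases 2 to 8) in capitals, as RefSeq gives them for GRCh38.p14. The 5p arm lies at chrX:151958628-151958652 and the 3p arm at chrX:151958584-151958606, both on the minus strand. The labels do not say which arm the precursor was meant to deliver.
hsa-miR-224-5p: uCAAGUCAcuagugguuccguuuag
hsa-miR-224-3p: aAAAUGGUgcccuagugacuaca
The 2 seeds differ, and 0 of the other mature human microRNA names in that table, which lists 2370 names, carry either seed. MicroRNAs outside that table were not compared, so neither seed is shown to be unique. The letters that would pair with the 5p seed in a message are UGACUUG, and with the 3p seed ACCAUUU. Untranslated regions were not searched for them here.

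Both arrays of experiment 1 stood apart from the other 4. The control probe set at the 5′ end of the actin message read 4.14 to 4.42 in experiment 1 and 12.3 to 12.5 in experiments 2 and 3, while the one at the 3′ end read 12.4 to 12.5 on all arrays. For GAPDH the 5′ end read 3.80 to 4.39 against 12.96 to 13.03, and the 3′ end 12.8 to 13.1 on all arrays. Probe sets in the middle read 6.63 to 6.86 against 12.4 to 12.6 for actin, and 9.76 to 10.1 against 13.1 for GAPDH. This low 5′ signal is present in both groups, and its part in the values of experiment 1 was not tested. Across all probe sets 8.6% were lower and 13.7% higher in experiment 1 at a limma adjusted p under 0.05. Among the epithelial markers, EPCAM read 10.1 to 10.8 and KRT18 12.1 to 12.5 over all arrays. KRT20 read 3.30 to 3.60 and VIL1 3.72 to 4.33. KRT8 read 6.73 to 7.30 in experiment 1 and 11.0 to 11.3 in experiments 2 and 3 (limma adjusted p = 8.27e-06 between them). CLDN4 read 5.51 to 5.63 in experiment 1 and 6.86 to 7.45 in experiments 2 and 3 (limma adjusted p = 0.00139). Of 14 measured leukocyte, fibroblast and endothelial markers 0 passed the test between the groups, and 2 (PTPRC and CD79A) were higher in miR-224 cells at an unadjusted p under 0.05, against 5.05% of all genes. PTPRC, which defines leukocytes, read 2.44 to 2.96 in miR-224 cells and 2.14 to 2.66 in control cells, below the median of every array. Mean levels ran from 2.37 to 4.52 over the leukocyte markers, 2.57 to 5.96 over the fibroblast markers and 2.32 to 4.47 over the endothelial markers. Some of these markers thus read above the array medians of 3.41 to 3.53.

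CDS2 was lower in the miR-224 cells on all 5 of its probe sets, and on the 3 brightest of them it stood at 40.2% to 50.4% of control in experiments 2 and 3 and at 79.4% to 93.0% in experiment 1. KAT6A was lower by less on all 4, LGALSL was higher on both, and SLC4A4 read close to the bottom of the scale in both groups. No probe set of the 4 genes passed the test over the 3 experiments (limma with experiment as a block, Benjamini-Hochberg over all probe sets, lowest adjusted p = 0.247 among the 16). Nor did any other: 0 of 54613 probe sets (0%) were called lower and 0% higher, and the lowest adjusted p was 0.0721. At an unadjusted p under 0.05, 3 of the 16 were lower, all of CDS2, and 1 was higher, of LGALSL, against 5.39% and 4.41% of all probe sets. Without the block the count of lower ones was 2, both of CDS2, against 0.791% of all probe sets. When the blocked fit let the variance follow the intensity and allowed for outlying variances, 0 of the 16 were called, against 0.0458% called lower and 0.00549% called higher over all probe sets. A lower mean was seen on 11 of the 16 and a higher one on 5, against 48.5% and 51.5% of all. These are repeated readings of 4 genes and are not independent. By brightest probe set 3 genes were lower, SLC4A4 by only -0.0037, and 1 was higher, against 46.8% and 53.2% of all genes. The median log2 difference of the 16 was -0.16, and 0.0054 over all probe sets. In these bulk samples fewer cells with a message and less message per cell cannot be told apart.

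**Figure D1:**
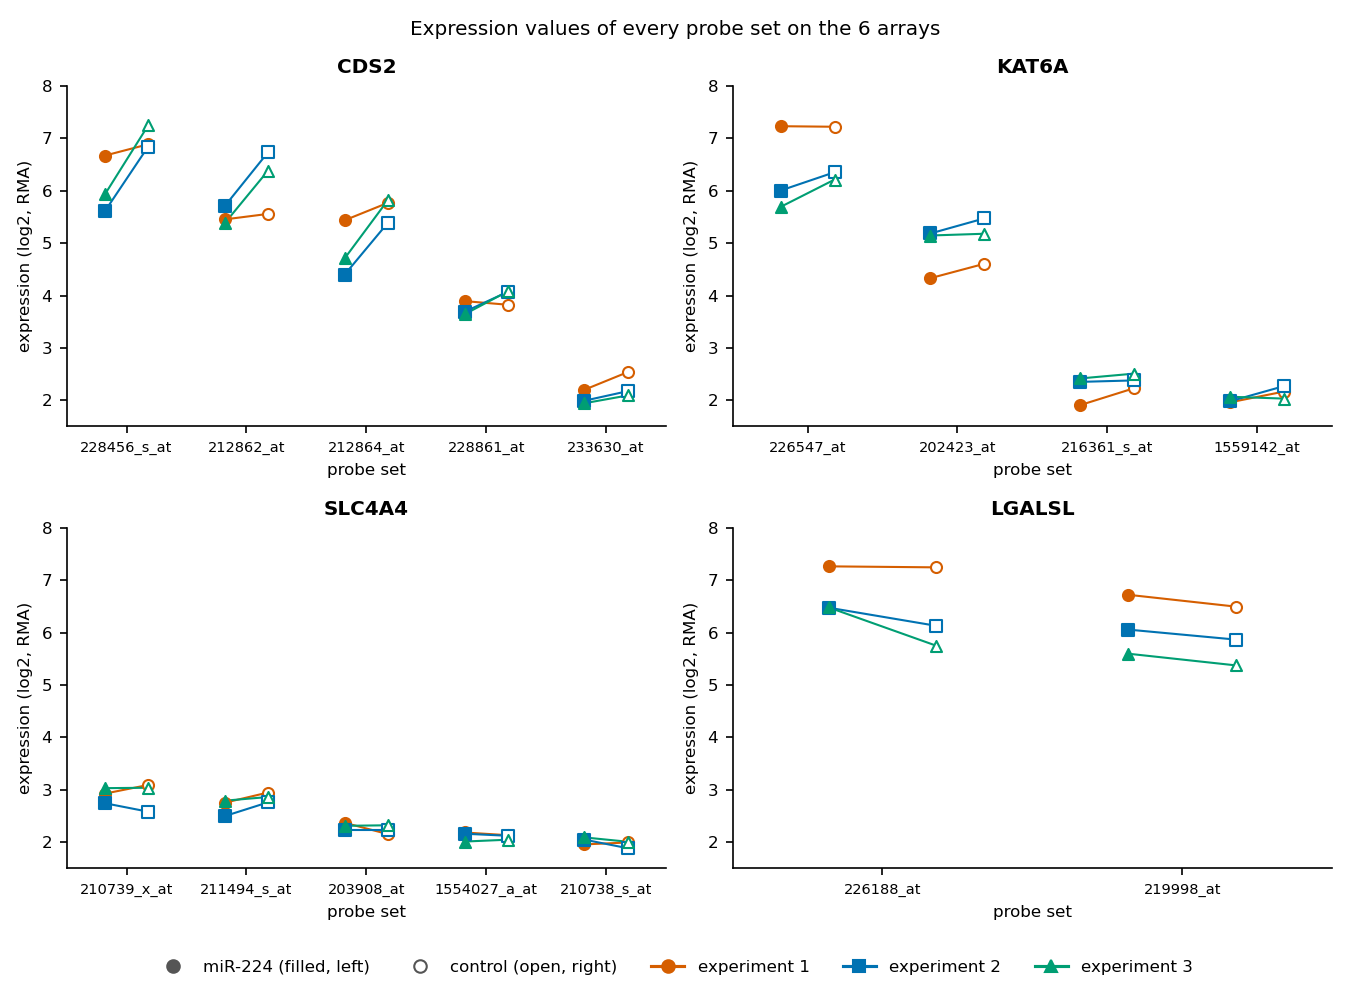
Expression of each probe set of the 4 genes on the 6 arrays (vertical axis, log2 RMA value; horizontal axis, probe sets from bright to dim), with filled symbols for miR-224 cells, open symbols for control cells and lines joining the 2 arrays of an experiment. The 3 brightest CDS2 probe sets slope up to control in experiments 2 and 3, the LGALSL lines slope down, and all SLC4A4 values lie at or below 3.09.

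CDS2 is read by 5 probe sets, of which 4 have a mean at or above the median of all probe sets. The brightest, 228456_s_at, read 6.67, 5.61 and 5.93 on the log2 scale in miR-224 cells of experiments 1, 2 and 3, against 6.89, 6.84 and 7.25 in control cells. Every miR-224 value lay below every control value, which was so for 2.64% of all probe sets, and the miR-224 array of experiment 1 lay closest to the controls. The group means were 6.07 ± 0.54 in miR-224 cells and 6.99 ± 0.22 in control cells (SD, n = 3 each). The log2 difference was -0.92 ± 0.20 (SE, n = 3 pairs, 95% interval -1.38 to -0.46), which is 52.9% of the control level, with a limma adjusted p of 0.261.

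The second probe set, 212862_at, read 5.45, 5.71 and 5.38 in miR-224 cells and 5.56, 6.73 and 6.38 in control cells of experiments 1, 2 and 3. The groups overlapped here because the control array of experiment 1 was low. Its log2 difference was -0.71 ± 0.18 (SE, n = 3 pairs, limma adjusted p = 0.301). The next, 212864_at, read 5.44, 4.40 and 4.71 in miR-224 cells and 5.77, 5.39 and 5.82 in control cells. The groups overlapped by the miR-224 array of experiment 1 alone, which stood just above the control array of experiment 2. Its log2 difference was -0.81 ± 0.16 (SE, n = 3 pairs, limma adjusted p = 0.247).

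The other probe sets of CDS2 were dimmer. 228861_at read 3.89, 3.69 and 3.64 in miR-224 cells and 3.82, 4.07 and 4.08 in control cells, with a log2 difference of -0.25 ± 0.13 (SE), and its sign turned in experiment 1. 233630_at read 1.94 to 2.20 in miR-224 cells and 2.09 to 2.54 in control cells, with 5 of the 6 values below the lower quartile of the arrays (2.48 to 2.55), and differed by -0.22 ± 0.10 (SE). Of the 5 probe sets, 4 were lower in each of the 3 experiments, against 14.8% of all probe sets. The mean of all 5, which gives the dim ones equal weight, differed by -0.58.

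In experiment 1 the brightest CDS2 probe set stood at 86.1% of its control level, in experiment 2 at 42.6% and in experiment 3 at 40.2%. For 212862_at the shares were 93.0%, 49.1% and 50.0%, and for 212864_at they were 79.4%, 50.4% and 46.3%, in the same order. The 3 probe sets therefore gave a like picture in experiments 2 and 3. Set against the differences of all probe sets within an experiment, that of 228456_s_at ranked at the 16.6th percentile in experiment 1, the 0.139th in experiment 2 and the 0.0879th in experiment 3. Those of 212862_at and 212864_at ranked between the 0.207th and the 0.379th percentile in experiments 2 and 3, and stood at percentiles of 30.7 and 7.83 in experiment 1.

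**Figure D2:**
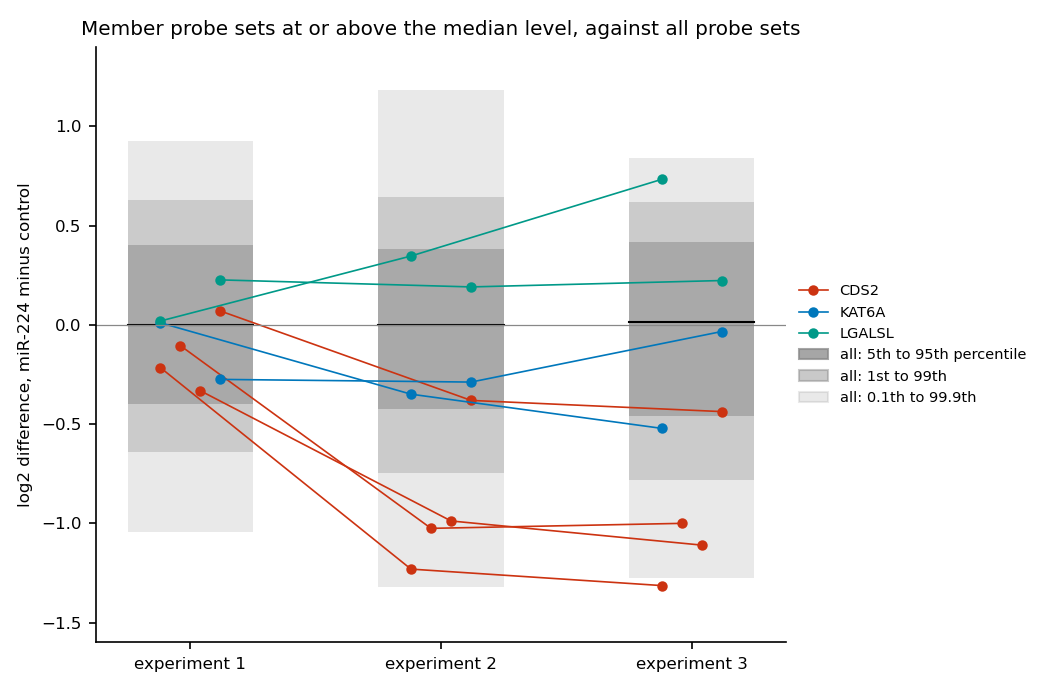
Log2 difference, miR-224 minus control (vertical axis), of the 8 member probe sets with a mean at or above the median of all probe sets, in each experiment (horizontal axis), over grey bands that hold the stated percentiles of all probe sets, with the median as a black line. The 3 brightest CDS2 probe sets lie within the 5th to 95th percentile band in experiment 1 and below the 1st percentile in experiments 2 and 3.

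With experiments 2 and 3 alone, the 3 bright CDS2 probe sets fell past the threshold. The log2 difference was -1.27 ± 0.13 (SE, limma adjusted p = 0.0148) for 228456_s_at, -1.01 ± 0.13 (adjusted p = 0.0273) for 212862_at and -1.05 ± 0.13 (adjusted p = 0.0264) for 212864_at, each lower in both experiments, which is 41.4%, 49.6% and 48.3% of the control level. The fit called 0.242% of all probe sets lower (132) and 0.00916% higher (5). It leaves 1 residual degree of freedom, so its standard errors draw on variances pooled over probe sets. The calls were absent with experiment 2 or experiment 3 left out in place of experiment 1, where 228456_s_at differed by -0.76 and -0.72. Leaving out 1 array of a pair gives the same values as leaving out both, since the block then absorbs the lone array.

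Whether the CDS2 difference itself differed between experiment 1 and the other 2 was tested with an interaction term, chosen after the values were seen. The difference was smaller in size in experiment 1 by 1.06 ± 0.23 (SE, log2 scale) for 228456_s_at, 0.91 ± 0.23 for 212862_at and 0.72 ± 0.23 for 212864_at. None passed (limma adjusted p = 0.550, 0.598 and 0.654), as was so for all probe sets, with a lowest adjusted p of 0.285. All 3 had an unadjusted p under 0.05, as had 6.57% of all probe sets. The level of CDS2 in experiment 1, averaged over both groups, differed from that in experiments 2 and 3 by 0.37 ± 0.25 (SE) for 228456_s_at, -0.55 ± 0.22 for 212862_at and 0.52 ± 0.21 for 212864_at, and none of these passed (limma adjusted p = 0.378, 0.138 and 0.124).

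KAT6A acetylates histone H3 within a complex that BRPF scaffold proteins hold together. Its brightest probe set, 226547_at, read 7.23, 6.0 and 5.69 in miR-224 cells of experiments 1, 2 and 3, against 7.22, 6.35 and 6.21 in control cells. Experiment 1 was high in both groups, so the groups overlapped, and only experiments 2 and 3 had a lower value with miR-224. The log2 difference was -0.29 ± 0.13 (SE, n = 3 pairs, 95% interval -0.58 to 0.0025, limma adjusted p = 0.513). With experiments 2 and 3 alone it was -0.44 ± 0.13 (SE, adjusted p = 0.279), or 74.0% of control.

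The second KAT6A probe set, 202423_at, read 4.33, 5.18 and 5.15 in miR-224 cells and 4.61, 5.47 and 5.18 in control cells. It was lower in all 3 experiments, by -0.27, -0.29 and -0.03, with a fitted difference of -0.20 ± 0.11 (SE, limma adjusted p = 0.593). The difference was least in experiment 1 on 226547_at and in experiment 3 on 202423_at. The dim probe sets 216361_s_at and 1559142_at read 1.91 to 2.42 in miR-224 cells and 2.03 to 2.51 in control cells, and differed by -0.15 each. The 95% interval of 202423_at ran from -0.45 to 0.05. A loss of the size estimated for the brightest CDS2 probe set lies outside the intervals of both bright KAT6A probe sets. The other 2 are too dim to show it. That CDS2 estimate has its own interval of -1.38 to -0.46, which overlaps the interval of 226547_at. The difference between the 2 genes was not tested.

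The bright KAT6A probe sets moved in opposite directions between experiments. Experiment 1 exceeded the mean of the other 2 by 1.16 ± 0.15 on 226547_at (SE, limma adjusted p = 0.00155), whereas 202423_at stood at -0.78 ± 0.13 by the same measure (adjusted p = 0.0039). Both shifts were larger than any difference between miR-224 and control on these probe sets. They are shared by the 2 groups within an experiment, and a shift equal in both drops out of the paired difference. Whether the low 5′ signal of experiment 1 also changed the paired difference was not tested.

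LGALSL, the galectin-related gene, was higher in miR-224 cells on both of its probe sets, the direction opposite to that of a lowered target. 226188_at read 7.26, 6.47 and 6.48 in miR-224 cells of experiments 1, 2 and 3, against 7.24, 6.13 and 5.75 in control cells. The groups overlapped across experiments, and the 2 arrays of experiment 1 were nearly equal. The log2 difference was 0.37 ± 0.14 (SE, n = 3 pairs, 95% interval 0.04 to 0.69, limma adjusted p = 0.461), or 129% of the control level. It was uneven, at 0.02, 0.35 and 0.73 in experiments 1, 2 and 3, and the value of experiment 3 ranked at the 99.7th percentile of all probe sets there.

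The other LGALSL probe set, 219998_at, read 6.72, 6.06 and 5.6 in miR-224 cells and 6.49, 5.86 and 5.37 in control cells. Each miR-224 array lay above the control array of its own experiment, and by nearly the same amount, at 0.23, 0.19 and 0.22. The fitted difference was 0.21 ± 0.10 (SE, limma adjusted p = 0.536), or 116% of control, and its 95% interval ran from -0.02 to 0.44. Both probe sets were higher in each of the 3 experiments, against 16.5% of all probe sets. Experiment 1 also exceeded the mean of the other 2 experiments on both, by 1.05 ± 0.17 (SE, limma adjusted p = 0.0035) and 0.89 ± 0.18 (adjusted p = 0.0117).

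SLC4A4, the bicarbonate cotransporter, gave little signal in HCT116 cells. Its 5 probe sets read between 1.88 and 3.09 on all 6 arrays, below the median of every array (3.41 to 3.53). The brightest, 210739_x_at, read 2.92, 2.74 and 3.03 in miR-224 cells and 3.09, 2.58 and 3.04 in control cells of experiments 1, 2 and 3. The groups overlapped fully, with a difference of -0.0037 ± 0.11 (SE, limma adjusted p = 0.996). 211494_s_at was lower in each experiment, by -0.19, -0.26 and -0.07, with values of 2.75, 2.50 and 2.79 in miR-224 cells and 2.95, 2.76 and 2.86 in control cells, and did not pass (adjusted p = 0.631). The remaining 3 differed by 0.02 to 0.07. Probe sets this dim show small differences poorly, so the values do not tell whether the message changed. The files hold no detection calls.

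**Figure D3:**
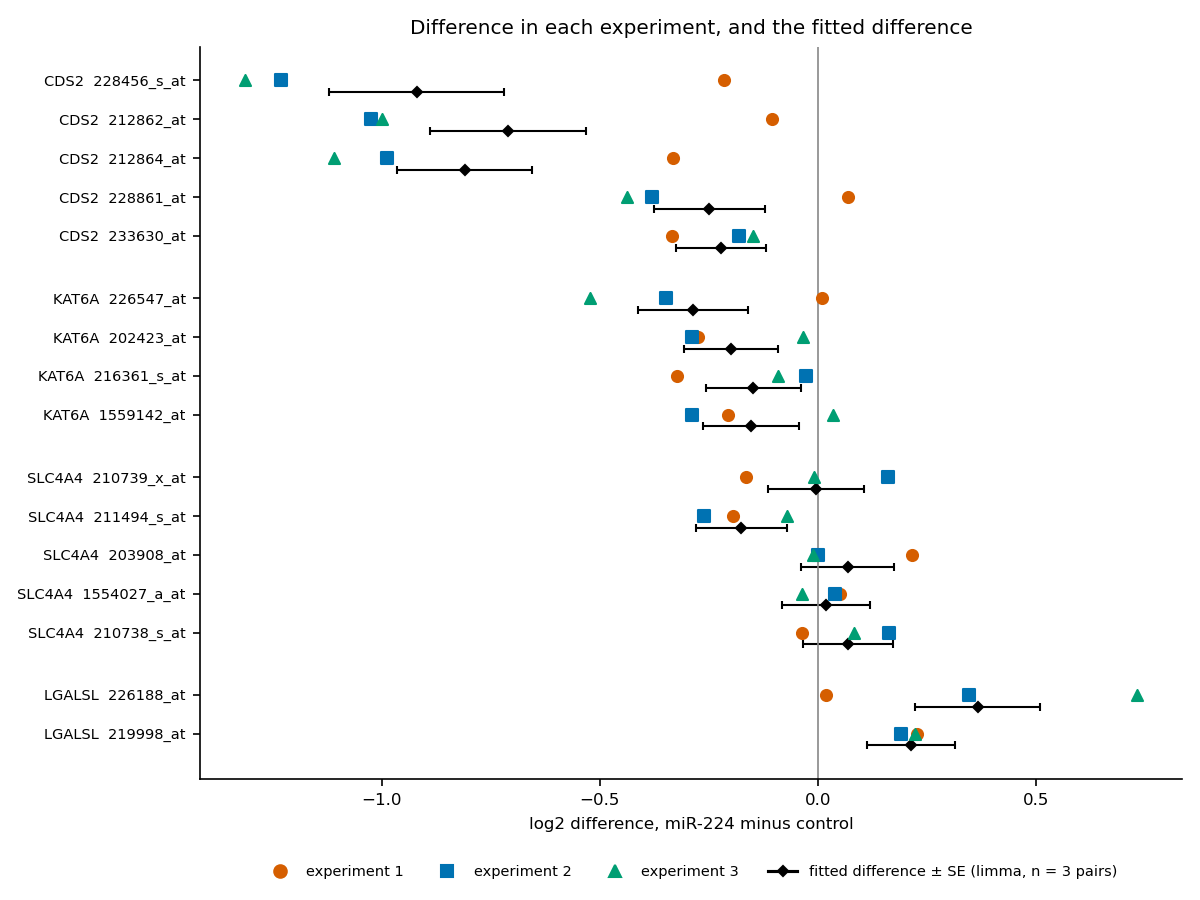
Log2 difference, miR-224 minus control (horizontal axis), of each probe set of the 4 genes (vertical axis) in experiments 1, 2 and 3, with the fitted difference and its SE as a black diamond and bar. The 3 bright CDS2 probe sets lie near or beyond -1 in experiments 2 and 3 and between -0.33 and -0.10 in experiment 1, and both LGALSL probe sets lie to the right of 0.

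The nearest relatives of the 4 genes were read by the brightest probe set of each. CDS1, the second CDP-diacylglycerol synthase of the endoplasmic reticulum, differed by 0.10 ± 0.11 (SE), at -0.05, 0.29 and 0.06 in experiments 1, 2 and 3, and its other 3 probe sets by -0.12, -0.01 and -0.11. TAMM41, which makes CDP-diacylglycerol in mitochondria, was lower in every experiment, by -0.49, -0.85 and -0.43, with a fitted difference of -0.59 ± 0.12 (SE, limma adjusted p = 0.249). Its second probe set differed by -0.24 and its dim last one by -0.006. CDIPT, which joins CDP-diacylglycerol to inositol, differed by -0.12 ± 0.11 (SE). The 95% interval of the brightest CDS1 probe set ran from -0.16 to 0.35. A loss of the size estimated for the bright CDS2 probe sets lies outside it, while the difference between CDS1 and CDS2 was not tested.

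Of 46 listed genes of CDP-diacylglycerol and phosphoinositide synthesis 44 were measured, with 29 lower and 15 higher, against 46.8% and 53.2% of all genes, and 0 passed in either direction, as over all genes (0%). The median log2 difference was -0.04, against 0.01 over all 19775 genes, and at an unadjusted p under 0.05 there were 6 lower and 1 higher, against 5.19% and 5.05% of all genes. After TAMM41 the smallest p values were those of the phospholipase C genes PLCB4 (-0.44 ± 0.11 SE, a dim probe set) and PLCD3 (-0.45 ± 0.12), lower in each experiment, with limma adjusted p values of 0.306 and 0.317. A second PLCD3 probe set stood at 0.89, -1.14 and -1.07 in experiments 1, 2 and 3. The second PLCB4 probe set, dimmer still, stood at -0.10, 0.02 and -0.34.

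Around KAT6A, 13 of 29 measured genes of MYST acetyltransferases and their complexes were lower and 16 higher, with a median of 0.04, and 0 passed. KAT6B, its closest relative, differed by -0.15 ± 0.12 (SE), KAT7 by 0.06 ± 0.12 and the scaffold gene BRPF1 by 0.12 ± 0.14. The smallest p values were those of PHF20 (-0.49 ± 0.11), KANSL3 (-0.44 ± 0.13) and the acetyltransferase gene KAT5, higher by 0.29, 0.26 and 0.55 on its 3 probe sets. The other probe sets of PHF20 ran from -0.18 to 0.38, and those of KANSL3 stood at -0.08, -0.25 and 0.03.

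Around SLC4A4, 11 of 23 measured bicarbonate and pH genes were lower and 12 higher, with a median of 0.0039, and 0 passed. SLC4A7, an electroneutral sodium bicarbonate cotransporter, read 6.86 ± 0.41 in miR-224 cells and 6.43 ± 0.81 in control cells (SD, n = 3 each). It was higher by 0.43 ± 0.15 (SE, limma adjusted p = 0.420), and its other 3 probe sets by 0.18, 0.38 and 0.23. The first stood at -0.0045, 0.51 and 0.80 in experiments 1, 2 and 3. In experiment 1 all 4 were below 0 (-0.0045 to -0.30), and with experiments 2 and 3 alone the first stood at 0.65. SLC4A8 differed by 0.27 ± 0.11 (SE), and its other probe sets by 0.05, 0.03 and -0.09. SLC4A5 differed by 0.11 ± 0.10 and the sodium-proton exchanger gene SLC9A8 by -0.32 ± 0.12. AHCYL1, known as IRBIT and an activator of SLC4A4, differed by -0.06 ± 0.10 on its brightest probe set. Its other probe sets stood at -0.04, at -0.61 and, on a dim one, at -0.13.

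Around LGALSL, 3 of 10 measured galectin genes were lower and 7 higher, with a median of 0.07, and 0 passed. LGALS3, which encodes galectin-3, was higher in each experiment, by 0.10, 0.47 and 0.35, with a fitted difference of 0.31 ± 0.11 (SE, limma adjusted p = 0.439). Its second probe set, a dim one, differed by -0.12. LGALS4, on a dim probe set, differed by 0.25 ± 0.10 (SE), LGALS3BP by 0.17 ± 0.13 and LGALS8 by 0.04 ± 0.11.

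Genes that move or retain methotrexate were listed with enzymes of folate use and nucleotide synthesis. They showed no common direction, with 13 of 27 measured lower, 14 higher, a median of 0.02 and 0 passing. The uptake carrier gene SLC19A1 differed by -0.16 ± 0.12 (SE), FPGS, whose enzyme retains methotrexate by adding glutamates, by 0.18 ± 0.12, the efflux pump genes ABCC3 and ABCC4 by -0.45 ± 0.16 and 0.34 ± 0.14, and the purine synthesis gene PAICS by -0.32 ± 0.13. Further probe sets stood at -0.02 and 0.12 for PAICS, at 0.15, 0.06 and -0.08 for ABCC4 and at -0.12 to -0.26 for ABCC3. The other SLC19A1 probe sets all had a lower mean, with differences from -0.03 to -0.33, though several changed sign between experiments. The largest of these differences was -0.33 ± 0.10 (SE, limma adjusted p = 0.371), at -0.35, -0.31 and -0.31 in experiments 1, 2 and 3. Of 7 measured genes reported in methotrexate-resistant cells 4 were lower and 3 higher, with a median of -0.06 and 0 passing, led by CDH1 (-0.25 ± 0.14), ENO2 (-0.17 ± 0.11) and AKR1C1 (0.14 ± 0.11). The second CDH1 probe set stood at -0.36. The other AKR1C1 probe sets, all dimmer, disagreed in sign and ran from -0.22 to 0.47. None of these passed either.

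**Figure D4:**
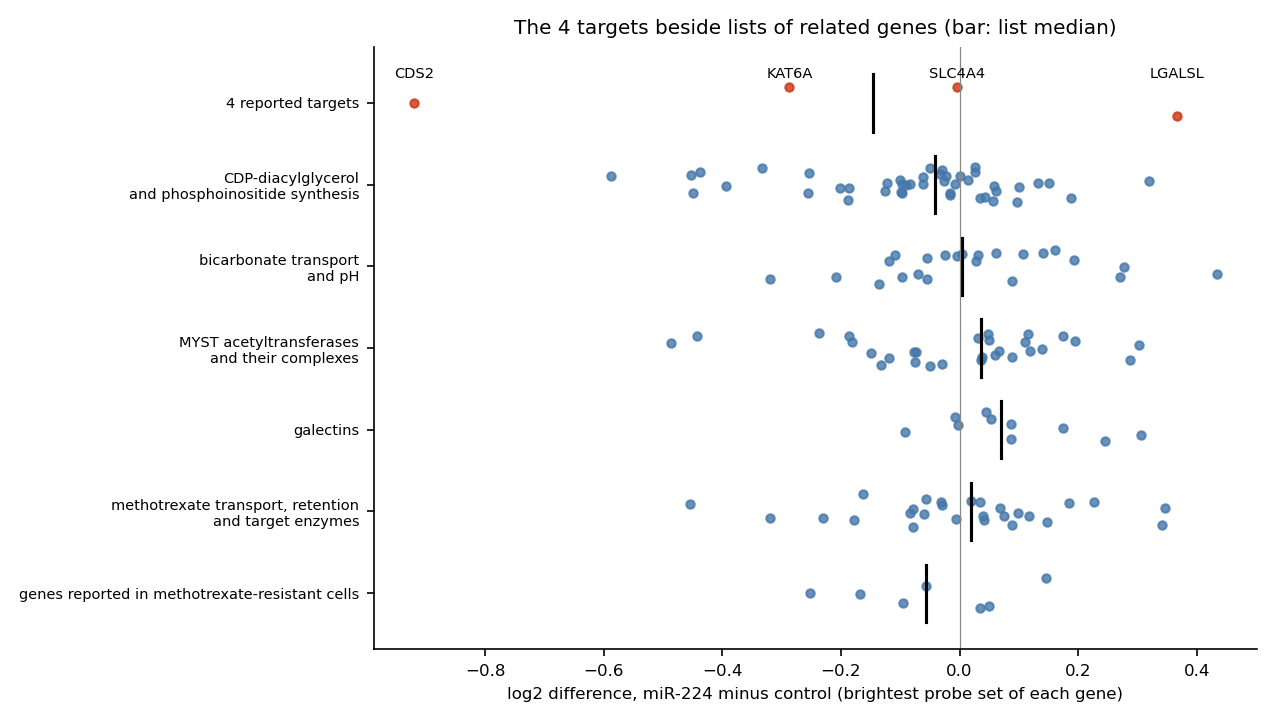
Log2 difference, miR-224 minus control (horizontal axis), of each gene's brightest probe set, for the 4 reported targets (red) and 6 lists of related genes (blue, 1 point a gene), with list medians as black bars. CDS2 at -0.92 lies to the left of every listed gene, of which TAMM41 at -0.59 is the nearest, and the list medians lie between -0.06 and 0.07.

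The genes whose values over the 6 arrays were most like those of the brightest probe set of each target were found by Pearson correlation among the brightest probe sets of all genes. The 6 arrays share 3 experiments, so such correlations also reflect the levels of an experiment. For CDS2 they were SDC4 (r = 0.989), LINC01119 (0.985) and UBE2J1 (0.983), and 34 genes had an r over 0.95. All 3 were, like CDS2, least lowered in experiment 1, a likeness that the choice by correlation itself favours. SDC4 stood at -0.39, -1.02 and -1.25 and UBE2J1 at -0.26, -0.95 and -0.90 in experiments 1, 2 and 3. For LGALSL they were ZDHHC2 (0.9997), DNA2 (0.995) and SLC4A7 (0.994). For KAT6A they were DDX19A (0.999), AVEN (0.999) and TULP4 (0.998), among 1168 genes with an r over 0.95. For the dim SLC4A4 they were LINC01697 (0.984), UBAC2-AS1 (0.973) and CYP7B1 (0.971).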

How the data were processed

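The data are the authors' processed values of 6 Affymetrix U133 Plus arrays. Per the submitters' processing notes, RMA and Partek were used, with versions and settings not given in the sources used here. The deposited values were read as log2: they lay between 1.47 and 13.6, with array medians of 3.41 to 3.53, while the base is not stated. RMA makes the arrays' distributions alike, so only differences relative to the bulk of probe sets can be seen. Probes differ in brightness, so levels of different probe sets give no order of genes.

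Of 54675 probe sets, 62 controls were left out. The array annotation gave 1 symbol for 41091, several for 1801 and none for 11721, and 0 symbols changed through the RefSeq table. Groups and experiment numbers came from the sample titles. Deviations from the group means correlated at 0.902, 0.734 and 0.783 between arrays of equal number and at -0.777 to 0.474 otherwise, across probe sets, which are not independent, so the numbers pair the arrays, as the series' design also says.

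All 54613 probe sets were fitted with limma 3.58.1 in R 4.3.3 (lmFit, eBayes, experiment as a block, two-sided, Benjamini-Hochberg, threshold 0.05), which leaves 2 residual degrees of freedom. Intervals are at 95% and, like the standard errors, come from the moderated fit. Lists were read by each gene's brightest probe set (highest mean over the 6 arrays) and described by counts and medians. The members and lists, recalled from general knowledge, were chosen with earlier results of these data known. Named are all member probe sets, a fixed set of relatives, of each list the 3 genes with the smallest p (as fewer than 3 passed), and the 3 genes most like each target. Alternatives were no block, each experiment left out, median centring, quantile normalization, a level filter, other variances, 1 probe set a gene, the mean of probe sets, a plain paired t statistic and a threshold of 0.1. The fits were tested on simulated data. Some listed genes were not analysed here. With 3 arrays a group, their number limits the precision. Figures used matplotlib 3.10.9 in Python 3.11.15.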

Additional observations from a re-analysis of the deposited data

How the results depend on the processing

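The count of called probe sets was 0 with experiment as a replicate block and also 0 with no replicate block, where the limma adjusted p was 1 for each of the 16 and 2 of them, both of CDS2, had an unadjusted p under 0.05. It stayed at 0 with median centring, quantile normalization, probe sets at or above the median level and 1 probe set a gene. It was 28 with an intensity trend and robust variances and 2 at a threshold of 0.1, with 0 of the 16 among them in either case. With single experiments left out it ranged from 0 to 137, and the count of called member probe sets from 0 to 3, the high end in both cases being without experiment 1. The plain paired t statistic called 0 of the 16. The bright CDS2, KAT6A and LGALSL probe sets kept their sign under all of these. Those of SLC4A4 that turned were 210739_x_at (0.0768) and 203908_at (-0.0051), both without experiment 1, and with single experiments left out they ran from -0.0862 to 0.0768 and from -0.0051 to 0.108. Averaging all probe sets of a target changed no sign. The count of probe sets that differ in level between experiment 1 and the others was 12171, and 4751 with 1 probe set a gene, where fewer are tested. List medians stayed within 0.11 of 0 under each alternative run. The number of arrays and the dim signal of SLC4A4 limit what can be seen.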

Other observations

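Further genes of phosphatidic acid and phosphoinositide metabolism had an unadjusted p under 0.05, and were picked for it with their values known. LPIN1, a phosphatidate phosphatase, stood at -0.13, -0.46 and -0.41 in experiments 1, 2 and 3, and DGKH, a diacylglycerol kinase, at 0.05, -0.63 and -0.59. PIP5K1C, which makes phosphatidylinositol bisphosphate, stood at -0.32, -0.29 and -0.74. PLCD1 was higher, at 0.12, 0.43 and 0.41. None passed the limma test over all probe sets. LPIN1 and DGKH, like CDS2, differed least in experiment 1, but the test of that difference did not pass for either (limma adjusted p = 0.874 and 0.670).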
